A study of Mus musculus with 12 samples.

Results

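Livers of mice given a CD40 agonist and an IL-1R1-blocking antibody together (Combo) were compared with control livers (isotype) over all genes. The 6 libraries of this comparison, 3 per group, were chosen by their column names and are part of a series of 12 libraries in 4 groups. CD40 is a co-stimulatory receptor of the tumour necrosis factor receptor superfamily on B cells, dendritic cells and macrophages, and agonist antibodies imitate its ligand. IL-1R1 carries the signal of IL-1α and IL-1β into the cell and activates NF-kB, and in the liver this signal, with that of IL-6, switches on the acute-phase proteins that hepatocytes secrete. Kupffer cells, the macrophages that reside in the liver, line its sinusoids.

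All 4 groups were liver RNA from mice of 12 weeks with pancreatic ductal adenocarcinoma (PDAC). The labels call the isotype group both an isotype control and no treatment, so it is not settled whether an antibody was injected there. The submitters list 3 pairwise comparisons, and Combo against isotype is not one of them. The Combo group received both antibodies, the agoCD40 group the agonist alone and the anti-IL-1R1 group the blockade alone. The labels used here give no tumour model, strain, sex, dose, schedule or antibody clone, and tie no library to an animal of its own, so the p-values below measure the spread between these libraries.

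The 6 libraries held 18681330 to 26440718 estimated counts each. Over the 12 libraries 15465 of 56748 listed genes passed the filter on low counts and were tested. Levels are CPM (counts relative to library size, after TMM scaling), and a change is a log2 fold change of Combo over isotype with its standard error (SE). Hepatocyte genes marked every library as liver, since a list of 21 such genes took 107620 to 129050 CPM in isotype and 81060 to 87482 CPM in Combo. Of 24 exocrine pancreas genes, 2 passed the filter. Transcripts of the mitochondrial genome took 14.1% of the counts in isotype 2 and 6.23% to 9.89% in the other 5 libraries. The median correlation of log2 CPM was 0.983 among Combo libraries, 0.966 among isotype libraries and 0.976 between the groups. The Y-linked gene Ddx3y had 871 to 1770 counts per library over the series and Xist had 0 to 9, so the 12 libraries did not differ in sex by these genes.

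In Combo livers antibody genes and other lymphoid genes were higher, a set of Kupffer-cell genes was lower, several acute-phase and IL-1-responsive genes were lower, and a set of extracellular matrix genes was higher. With edgeR's quasi-likelihood test 63 genes had an adjusted p under 0.05, which is 0.407% of the genes tested. Of these, 39 (0.252% of genes tested) were higher and 24 (0.155%) were lower. In all 63 genes the 3 Combo libraries lay outside the range of the 3 isotype libraries, 39 above and 24 below. Over all genes tested, 8.78% lay wholly above and 7.57% wholly below. At an unadjusted p under 0.05 there were 1777 genes (11.5%). The split moved with total-count scaling, to 52 higher and 10 lower, as the median fold change of all genes went from -0.02 to 0.11. With RLE scaling it was 39 and 27. A different test on other values, limma on log2(TPM + 1), gave 48 and 11.

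Leaving out 1 library at a time, 11 of the 63 genes passed every time. These were Ighm, Igkc, Jchain, Ighg2b, Ighg2c, Pla2g2d, Camp and Cpxm1 among those that rose, and Cd163, Clec4f and Glt28d2 among those that fell. Between 12 and 39 genes were called in these 6 fits: 12 without Combo 1, 16 without Combo 2, 25 without Combo 3, 25 without isotype 1, 38 without isotype 2 and 39 without isotype 3. The other 52 calls were each lost in at least 1 of these fits. Of the 63 calls, 51 were lost without Combo 1, 47 without Combo 2 and 39 without Combo 3. Without isotype 1, 2 or 3 the losses were 42, 33 and 33. Among others, Cd79a, H2-Eb2, Il9r, Ighg3, Vsig4, Pdk2 and Fmod passed in 0 of the 6 fits. Il1r1, Fgg, Itih4, Apcs, Hc, Folr2, Ltb, Ccl2 and Igha were among those that passed in 1. A fit of only the 6 libraries called 9 genes, 7 higher and 2 lower.

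Promoters of NF-kB target genes and of acute-phase genes are shown first, to give the sequence next to some of the called genes. None of the genes with a promoter described here was among the 11 that passed in every fit leaving out 1 library. The sequences are the 250 bases upstream of the transcript start in RefSeq on the GRCm38.p6 build, in transcript orientation, and 36 of the 63 called genes had an entry in that table. Capitals in the first pair mark matches to GGG, any 2 bases and TTTCC in a row on either strand, an NF-kB-type motif present in 1.41% of 32851 promoters. Cxcl1, a neutrophil-attracting chemokine that fell, is on the plus strand at chr5:90890995-90891244 with matches starting 89 and 71 bases before the transcript start. Ltb, which encodes lymphotoxin β and rose, is on the plus strand at chr17:35194257-35194506 with 1 match starting 87 bases before it.
Cxcl1: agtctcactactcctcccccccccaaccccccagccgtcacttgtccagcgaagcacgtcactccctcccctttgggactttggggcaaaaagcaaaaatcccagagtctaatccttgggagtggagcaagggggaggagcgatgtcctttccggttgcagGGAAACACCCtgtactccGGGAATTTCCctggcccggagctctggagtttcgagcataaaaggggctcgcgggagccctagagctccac
Ltb: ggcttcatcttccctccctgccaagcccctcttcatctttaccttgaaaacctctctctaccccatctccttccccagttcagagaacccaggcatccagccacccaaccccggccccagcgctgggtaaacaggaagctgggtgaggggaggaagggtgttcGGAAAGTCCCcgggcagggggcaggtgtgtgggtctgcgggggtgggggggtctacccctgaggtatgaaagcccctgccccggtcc
In the next group, capitals mark matches to TTCNNGGAA on either strand, a STAT-type motif found in 4.06% of promoters, for the acute-phase genes that fell. Fgb (β chain of fibrinogen) is on the minus strand at chr3:83049864-83050113 with a match starting 162 bases before the transcript start. Itih4 (an inter-α-trypsin inhibitor heavy chain) is on the plus strand at chr14:30886226-30886475 with a match at 51 bases. Apcs (serum amyloid P) is on the minus strand at chr1:172895055-172895304 with a match at 244 bases.
Fgb: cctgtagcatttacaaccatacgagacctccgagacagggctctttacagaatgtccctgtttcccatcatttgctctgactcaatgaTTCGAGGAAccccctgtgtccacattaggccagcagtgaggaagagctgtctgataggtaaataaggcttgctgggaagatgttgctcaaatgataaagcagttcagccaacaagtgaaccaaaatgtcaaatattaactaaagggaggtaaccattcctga
Itih4: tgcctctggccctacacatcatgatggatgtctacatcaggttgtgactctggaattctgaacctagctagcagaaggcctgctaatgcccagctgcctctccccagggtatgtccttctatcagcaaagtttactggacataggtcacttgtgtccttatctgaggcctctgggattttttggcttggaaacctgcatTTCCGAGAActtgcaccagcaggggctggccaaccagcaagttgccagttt
Apcs: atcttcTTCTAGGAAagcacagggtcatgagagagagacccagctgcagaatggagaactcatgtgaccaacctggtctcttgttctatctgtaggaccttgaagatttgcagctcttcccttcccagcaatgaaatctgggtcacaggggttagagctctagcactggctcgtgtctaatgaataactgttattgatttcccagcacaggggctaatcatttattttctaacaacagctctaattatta
The same window of Fgg (γ chain of fibrinogen) held none of the motifs searched. Fgb also held the C/EBP-type motif TTGCNNAA, searched on both strands and present in 9.56% of promoters, starting 80 bases before the transcript start. The STAT-type and C/EBP-type motifs did not overlap in Fgb. A match describes letters in this window and was not tested as a binding site.

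Antibody genes rose, and 5 of them passed in every fit that left out 1 library. Ighm (ENSMUSG00000076617), the heavy chain of IgM, measured 5.63, 8.59 and 6.71 CPM in the isotype libraries and 50.04, 71.9 and 55.4 CPM in the Combo libraries. Every Combo library was above every isotype library, and the fold change was 3.08 ± 0.29 on the log2 scale (SE, n = 3 per group; edgeR adjusted p = 0.000679). Jchain (ENSMUSG00000067149), the chain that joins IgM and IgA into polymers, measured 0.214, 0.904 and 0.334 CPM in isotype and 20.4, 17.0 and 12.4 CPM in Combo. It rose by 5.10 ± 0.45 (edgeR adjusted p = 0.000679), with no overlap between the groups. Igkc, the constant part of the κ light chain, measured 2.95, 7.84 and 2.41 CPM in isotype and 61.5, 73.7 and 51.2 CPM in Combo. It rose by 3.83 ± 0.45 (edgeR adjusted p = 0.00261), and the lowest Combo library was far above the highest isotype library.

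Switched antibody classes rose as well. Ighg2b, an IgG2 heavy chain, measured 0.322, 0.352 and 0.631 CPM in isotype and 11.5, 13.1 and 9.27 CPM in Combo (log2 4.65 ± 0.50; edgeR adjusted p = 0.00144). Ighg2c, a related IgG2 heavy chain, measured 0, 0.402 and 0.0371 CPM in isotype and 19.6, 20.6 and 10.4 CPM in Combo (log2 6.86 ± 0.81; edgeR adjusted p = 0.00261). Both genes were near the lower limit of counting in isotype and clearly counted in every Combo library. Igha, the heavy chain of IgA, measured 0.643, 3.47 and 0.408 CPM in isotype and 28.1, 11.8 and 12.7 CPM in Combo (log2 3.56 ± 0.65; edgeR adjusted p = 0.038). Combo 1 was the highest library for Igha and isotype 2 the highest control, and the groups did not overlap. Ighg3 had 0 counts in the isotype group and 75 in the Combo group. The isotype group was then set to 3 counts in all, about the 1-sided 95% upper limit of a count of 0. By that limit Ighg3 was at least 22.6-fold higher (edgeR adjusted p = 0.0384). The λ constant genes Iglc1 (log2 4.85 ± 0.80), Iglc2 (3.15 ± 0.52) and Iglc3 (3.96 ± 0.69) passed with edgeR adjusted p of 0.0237, 0.0237 and 0.0311. Antibody constant genes of one class are related copies, Iglc2 and Iglc3 most closely, so how reads were divided among them is uncertain, and Ighg3 and Iglc3 were picked after their values were seen.

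All 22 immunoglobulin variable segments tested had a positive fold change, with a median of 5.21 and a range of 1.67 to 6.91, and 3 passed the threshold (Iglv1, Iglv2 and Igkv1-110). All immunoglobulin genes together took 14.2 to 27.8 CPM in isotype and 202 to 268 CPM in Combo. An exact permutation test of this difference gave p = 0.1 (two-sided), the smallest that 3 against 3 allows.

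Of the genes of the B-cell surface, Cd79a rose. Cd79a, a signalling subunit of the B-cell receptor, measured 1.501, 1.005 and 1.59 CPM in isotype and 7.29, 11.3 and 9.53 CPM in Combo (log2 2.76 ± 0.48; edgeR adjusted p = 0.0311). The next B-cell genes, picked after their values were seen, did not pass. Pou2af1, a transcriptional co-activator of B cells, had a fold change of 2.60 ± 0.51 (edgeR adjusted p = 0.0511) and Ms4a1 (CD20) one of 2.72 ± 0.56 (0.061). In each of these 3 genes the Combo libraries lay above the isotype libraries, as in 8.78% of all genes tested. The list of B-cell and plasma-cell genes had 28 members tested, of which 11 rose and 0 fell. In 27 of them the fold change was positive, and the median was 2.78. Among all genes tested 0.252% were called higher, 48.4% were positive, 51.6% were negative and the median was -0.02. In bulk tissue, more cells of a type and more RNA per cell cannot be told apart.

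The erythrocyte and blood list had 11 of 13 positive fold changes, a median of 1.36 and 0 calls. Its summed level was 453 to 1816 CPM in isotype and 1878 to 2975 CPM in Combo, without overlap. Klf1, an erythroid transcription factor, measured 2.36, 1.96 and 1.34 CPM in isotype and 4.76, 5.73 and 5.14 CPM in Combo (log2 1.47 ± 0.37; edgeR adjusted p = 0.132). What part this has in the lymphoid differences was not tested.

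**Figure D1:**
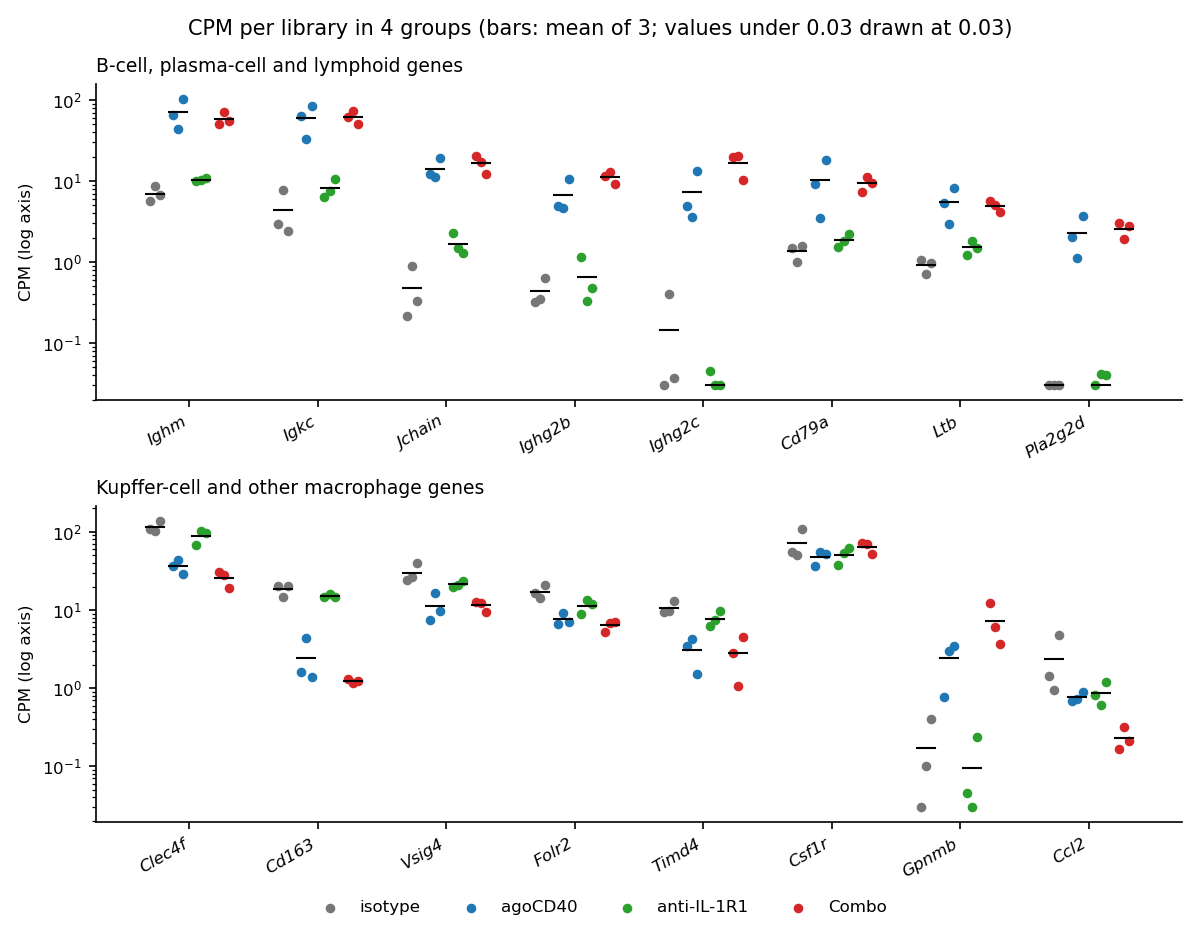
CPM per library on a log axis for lymphoid genes (top) and macrophage genes (bottom), with points for the 3 libraries of each of 4 groups, bars at their mean and values under 0.03 drawn at 0.03. For Ighm the Combo libraries sit between 50.04 and 71.9 CPM and the isotype libraries between 5.63 and 8.59 CPM, while Cd163 falls from 14.7 CPM or more to 1.31 CPM or less.

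Lymphoid-tissue genes were also higher. Ltb, a ligand that B cells and T cells present to lymphoid stroma, measured 1.07, 0.703 and 0.964 CPM in isotype and 5.73, 5.05 and 4.13 CPM in Combo (log2 2.44 ± 0.38; edgeR adjusted p = 0.0213). Pla2g2d, a secreted phospholipase of lymphoid tissue, had 0 counts in isotype and 187 in Combo, by the same limit a rise of at least 56.4-fold (edgeR adjusted p = 0.00468). Its Combo libraries measured 3.03, 1.92 and 2.82 CPM. Il9r, the receptor of IL-9, had 2 counts in isotype and 121 in Combo, a ratio of 54.7 (exact 95% interval 14.8 to 457; edgeR adjusted p = 0.0431). In the same list Cxcl13, the chemokine that draws B cells into follicles, went in the opposite direction without passing: 2.79, 1.86 and 3.00 CPM in isotype and 0.0842, 0.521 and 0.548 CPM in Combo (log2 -2.71 ± 0.55; edgeR adjusted p = 0.058). Its receptor gene Cxcr5 had a fold change of 2.21 ± 0.60 (edgeR adjusted p = 0.168). Cxcl13 and Cxcr5 were picked after their values were seen. Of 11 tested genes in the lymphoid stroma and chemokine list, 3 rose, 0 fell and 9 were positive, with a median of 1.22. Of all genes tested 0.252% were called higher and 48.4% were positive.

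For antigen presentation, 1 of 12 class II genes passed. H2-Eb2, a class II β chain gene, had 1 count in isotype and 120 in Combo, a ratio of 109 (exact 95% interval 19.1 to 4323; edgeR adjusted p = 0.0237). Cd74, the invariant chain, measured 85.6, 89.3 and 216 CPM in isotype and 396, 397 and 239 CPM in Combo (log2 1.40 ± 0.39; edgeR adjusted p = 0.176). Isotype 3 came close to Combo 3, and the groups did not overlap. H2-Aa, a class II α chain, had a fold change of 1.35 ± 0.40 (edgeR adjusted p = 0.197). Cd74 and H2-Aa were picked after their values were seen. In the class II list 11 of 12 genes were positive and the median was 1.45. The shares called higher and positive among all genes tested were 0.252% and 48.4%. The class I list had 0 calls among 18 genes and a median of 0.12, with the immunoproteasome subunit gene Psmb9 at 1.17 ± 0.28 (edgeR adjusted p = 0.116).

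No T-cell or NK-cell gene passed. In the T-cell list 19 of 22 genes were positive with a median of 0.91, and in the NK and cytotoxic list 10 of 12 with a median of 0.50. Cd3d, a subunit of the T-cell receptor complex, measured 0.107, 0.301 and 0.297 CPM in isotype and 1.64, 1.92 and 1.22 CPM in Combo (log2 2.71 ± 0.75; edgeR adjusted p = 0.172). Cd8a, the co-receptor of cytotoxic T cells, had a fold change of 1.81 ± 0.64 (edgeR adjusted p = 0.296). Eomes, a transcription factor of cytotoxic lymphocytes, had 0 counts in isotype and 39 in Combo. By the limit of 3 counts it was at least 11.8-fold higher, without passing (edgeR adjusted p = 0.0992). Ccl5, a chemokine of cytotoxic lymphocytes, measured 0.858, 1.00 and 2.11 CPM in isotype and 4.34, 8.01 and 4.34 CPM in Combo (edgeR adjusted p = 0.163). These genes were counted at low levels, where 3 libraries per group give little precision.

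Interferon response and CD40 target lists held no call. The interferon-γ list had 0 calls among 22 genes and a median of -0.07, and the type I interferon list 0 of 23 and a median of -0.26. The CD40 and NF-kB target list had 0 of 20 and a median of 0.15. Traf1, a signalling adaptor and target of this pathway, had the smallest p of that list with a fold change of 1.505 ± 0.70 (edgeR adjusted p = 0.437). Cd40 (ENSMUSG00000017652) itself was barely counted, at 0.375, 0 and 0.853 CPM in isotype and 0.884, 0.480 and 1.01 CPM in Combo, and the groups overlapped (log2 0.90 ± 0.91; edgeR adjusted p = 0.76).

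Kupffer-cell genes fell in part. Cd163 (ENSMUSG00000008845), a scavenger receptor for haemoglobin, measured 20.2, 14.7 and 20.1 CPM in isotype and 1.31, 1.161 and 1.22 CPM in Combo. It fell by 3.89 ± 0.38 on the log2 scale, 14.9-fold (edgeR adjusted p = 0.000711). Clec4f (ENSMUSG00000014542), a lectin found on Kupffer cells, measured 108, 104 and 139 CPM in isotype and 30.4, 28.4 and 18.9 CPM in Combo, and fell by 2.18 ± 0.23 (edgeR adjusted p = 0.00144). For both genes the highest Combo library was far below the lowest isotype library. Folr2, a folate receptor of resident macrophages, measured 16.3, 14.1 and 21.0 CPM in isotype and 5.18, 6.85 and 7.12 CPM in Combo (log2 -1.43 ± 0.22; edgeR adjusted p = 0.0216). Vsig4, a complement receptor of Kupffer cells, measured 24.3, 26.5 and 39.6 CPM in isotype and 12.6, 12.1 and 9.57 CPM in Combo (log2 -1.40 ± 0.27; edgeR adjusted p = 0.0473), and it no longer passed with total-count scaling (edgeR adjusted p = 0.0991).

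Timd4, Csf1r and Adgre1 did not pass. Timd4, a receptor for dead cells on resident macrophages, had a fold change of -1.94 ± 0.46 without passing (edgeR adjusted p = 0.112). Csf1r, the growth factor receptor of macrophages, measured 54.8, 50.7 and 109 CPM in isotype and 71.8, 70.7 and 51.8 CPM in Combo, and the groups overlapped (log2 -0.15 ± 0.29; edgeR adjusted p = 0.899). Adgre1 (F4/80), a general macrophage marker, also overlapped, at 16.6, 7.53 and 27.0 CPM against 17.3, 15.3 and 12.0 CPM (log2 -0.20 ± 0.46; edgeR adjusted p = 0.915). Isotype 3 was the highest library for Csf1r and Adgre1, and without it both fold changes were positive (0.30 each). Timd4, Csf1r and Adgre1 were picked after their values were seen. Over all genes tested 0.155% were called lower and 51.6% were negative. Of 21 tested Kupffer-cell genes 4 fell, 0 rose and 14 (66.7%) were negative, with a median of -0.15. The median of this list ranged from -0.34 to 0.18 over the other settings tried, and its summed level, 954 to 1509 CPM in isotype and 921 to 1235 CPM in Combo, overlapped.

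Among recruited and lipid-associated macrophage genes, Gpnmb rose and Ccl2 fell. Gpnmb, a glycoprotein of lipid-laden macrophages, measured 0, 0.1005 and 0.408 CPM in isotype and 12.3, 6.01 and 3.67 CPM in Combo (log2 5.25 ± 0.94; edgeR adjusted p = 0.0351). Combo 1 was the highest library, and without it the fold change was 4.67 and did not pass. Gpnmb also did not pass without Combo 2, Combo 3, isotype 1 or isotype 2. Trem2, another gene of such macrophages picked after its values were seen, did not separate the groups, at 0.804, 1.00 and 1.85 CPM in isotype and 3.87, 1.20 and 0.632 CPM in Combo (edgeR adjusted p = 0.749). Its fold change of 0.63 ± 0.61 became -0.42 without Combo 1. Ccl2, the chemokine that recruits monocytes, measured 1.45, 0.954 and 4.78 CPM in isotype and 0.168, 0.320 and 0.211 CPM in Combo (log2 -3.34 ± 0.64; edgeR adjusted p = 0.0473). The lipid-associated list had 1 call among 13 genes and a median of 0.33, and the monocyte list had 1 call among 19 and a median of -0.09. Ms4a7, a gene of monocyte-derived macrophages picked after its values were seen, had a fold change of 2.58 ± 0.61 (edgeR adjusted p = 0.112).

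Of the neutrophil genes, Camp rose. Camp, the cathelicidin peptide made in neutrophil precursors, had 0 counts in isotype and 233 in Combo. By the limit of 3 counts it was at least 70.3-fold higher (edgeR adjusted p = 0.0124), and its Combo libraries measured 1.94, 4.80 and 2.82 CPM. Ngp, a second granule protein of precursors, measured 0, 0 and 1.00 CPM in isotype and 5.64, 14.6 and 8.09 CPM in Combo (log2 4.64 ± 0.90; edgeR adjusted p = 0.0597). Mpo, the myeloperoxidase of early granules, had a fold change of 4.06 ± 0.99 (edgeR adjusted p = 0.143). The calprotectin gene S100a8, abundant in mature neutrophils, measured 4.07, 7.74 and 12.0 CPM in isotype and 7.58, 18.9 and 10.6 CPM in Combo, and the groups overlapped (log2 0.63 ± 0.43; edgeR adjusted p = 0.624). S100a9, its partner, had a fold change of 0.44 ± 0.41 (edgeR adjusted p = 0.738). Ngp, Mpo, S100a8 and S100a9 were picked after their values were seen. The neutrophil list had 1 of 16 genes higher and 0 lower, with a median of 0.53. In that list 10 fold changes were positive and 6 negative, down to -1.86. At an unadjusted p under 0.05 (edgeR) 5 were higher and 2 lower. The difference between granule genes was not tested.

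**Figure D2:**
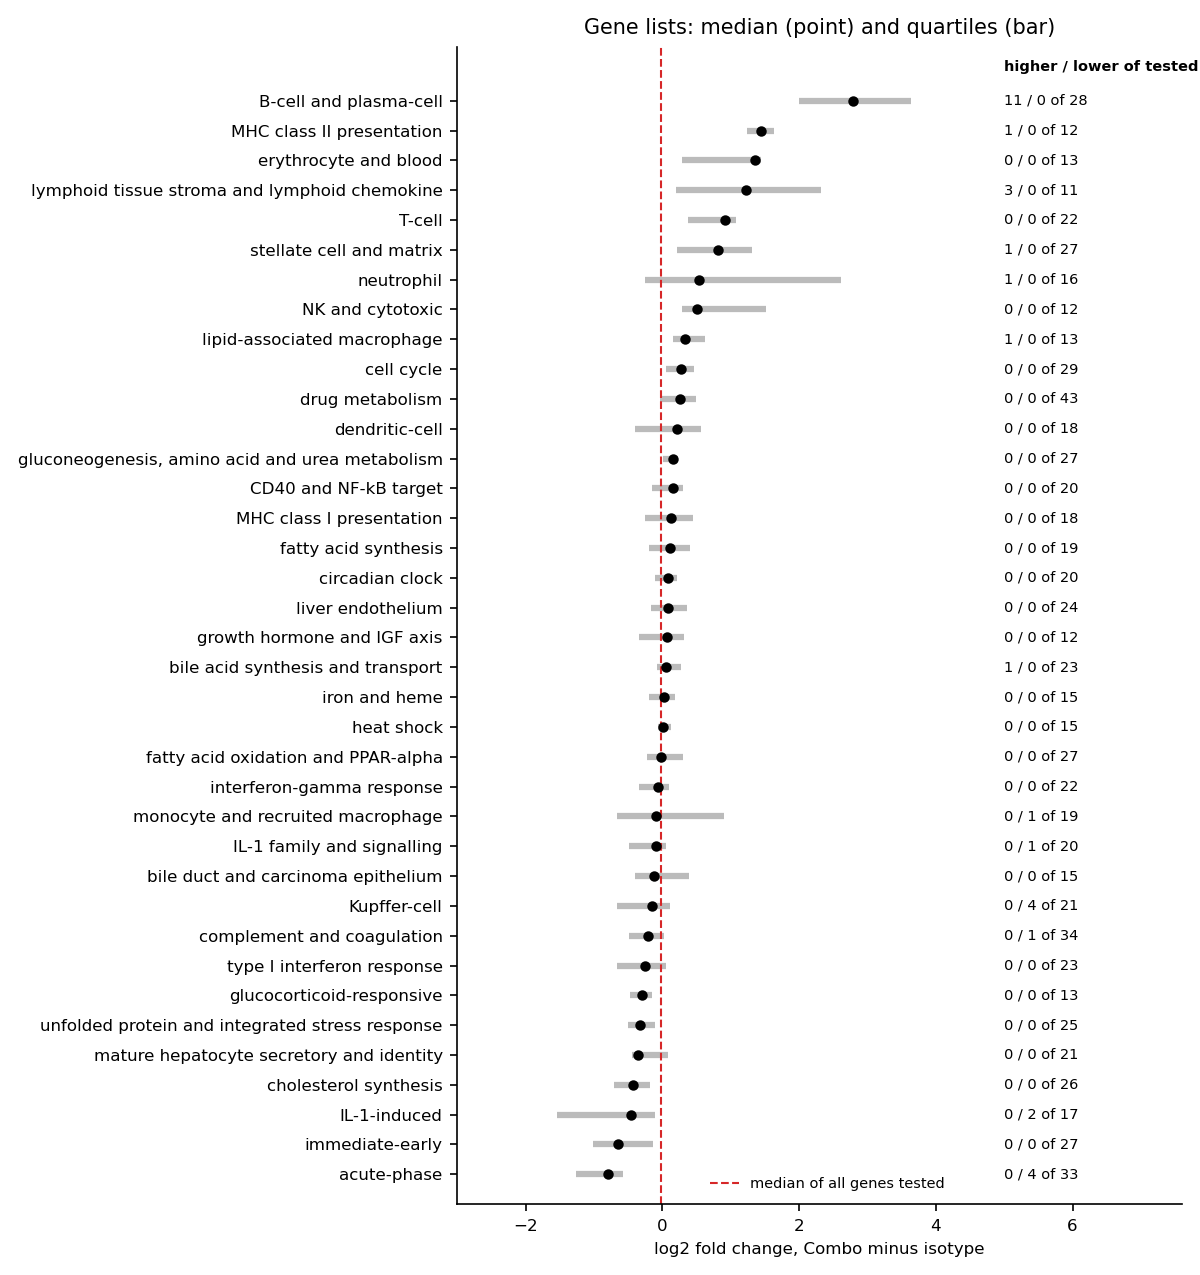
Median (point) and quartiles (bar) of the log2 fold change of Combo over isotype for the 37 gene lists with at least 10 genes tested, with the numbers of genes higher and lower at the right and the median of all genes as a dashed line. The B-cell and plasma-cell list has the highest median (2.78, with 11 of 28 genes higher) and the acute-phase list the lowest (-0.80, with 4 of 33 lower).

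Acute-phase genes of hepatocytes were lower. Fgb (fibrinogen β, promoter above) measured 4495, 5662 and 6031 CPM in isotype and 2673, 2556 and 2590 CPM in Combo, and fell by 1.05 ± 0.16 on the log2 scale (edgeR adjusted p = 0.0203). Fgg (fibrinogen γ) measured 4044, 3861 and 5409 CPM in isotype and 2347, 2242 and 2273 CPM in Combo (log2 -0.96 ± 0.17; edgeR adjusted p = 0.0358). The 3 Combo libraries lay close together in both genes and well below the lowest isotype library. Itih4 measured 2279, 1675 and 2640 CPM in isotype and 1126, 977 and 939 CPM in Combo (log2 -1.12 ± 0.20; edgeR adjusted p = 0.0359). Apcs, a pentraxin of the acute phase in mice, measured 114, 223 and 201 CPM in isotype and 55.4, 55.4 and 57.2 CPM in Combo (log2 -1.68 ± 0.33; edgeR adjusted p = 0.0498). With total-count scaling Fgg, Itih4 and Apcs no longer passed (edgeR adjusted p = 0.0814, 0.0991 and 0.0594), nor did Hc (0.0686), Ccl2, Slc41a2 and Nlrp12 (0.0594 each). All 4 acute-phase calls, Fgb included, were lost with limma, with only the 6 libraries and with replicate number as a block. Fgb was also lost without Combo 1, without Combo 2 and without Combo 3.

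Further acute-phase genes, picked after their values were seen, missed the threshold. Saa1, serum amyloid A, measured 217, 304 and 643 CPM in isotype and 99.6, 80.1 and 59.5 CPM in Combo (log2 -2.28 ± 0.45; edgeR adjusted p = 0.0511). Saa2, its near-identical neighbour, had a fold change of -3.19 ± 0.66 (edgeR adjusted p = 0.0597), and reads of the pair may be divided uncertainly. Hp, haptoglobin, measured 3931, 5755 and 6016 CPM in isotype and 2127, 1584 and 2258 CPM in Combo (log2 -1.40 ± 0.29; edgeR adjusted p = 0.0597). Cp, ceruloplasmin, had a fold change of -0.81 ± 0.16 (edgeR adjusted p = 0.051), and Fga, fibrinogen α, one of -0.88 ± 0.23 (edgeR adjusted p = 0.143). In each of these 5 genes all Combo libraries were below all isotype libraries, as in 7.57% of all genes tested. Of 33 acute-phase genes 4 fell, 0 rose and 31 were negative, with a median of -0.80 that ranged from -0.89 to -0.64 over the other settings. Among all genes tested 0.155% were called lower and 51.6% were negative. The summed level of the list was 52106 to 71922 CPM in isotype and 32053 to 36539 CPM in Combo.

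Among complement and related secreted proteins, Hc and Fgl1 fell. Hc, complement C5, measured 930, 780 and 872 CPM in isotype and 438, 429 and 475 CPM in Combo (log2 -0.94 ± 0.16; edgeR adjusted p = 0.0258), and it was the 1 call among 34 complement and coagulation genes (median -0.20). C4b, picked after its values were seen, had a fold change of -0.84 ± 0.17 (edgeR adjusted p = 0.0627). Fgl1, a secreted fibrinogen-like protein of hepatocytes and a ligand of the T-cell receptor LAG-3, measured 563, 1286 and 754 CPM in isotype and 168, 121 and 177 CPM in Combo (log2 -2.48 ± 0.42; edgeR adjusted p = 0.0258). Its groups stood far apart, with isotype 2 the highest library. The list of mature hepatocyte genes had 0 calls among 21, with 15 negative and a median of -0.35. At an unadjusted p under 0.05 (edgeR) 9 of them were lower and 2 higher. Its summed level also fell without overlap, from 107620 to 129050 CPM in isotype to 81060 to 87482 CPM in Combo. Whether acute-phase genes fell more than hepatocyte genes in general was not tested.

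Genes of the IL-1 axis were lower at the receptor and at some induced genes. Il1r1 (ENSMUSG00000026072), the receptor that the blocking antibody binds, measured 66.8, 81.6 and 53.7 CPM in isotype and 30.1, 34.2 and 31.4 CPM in Combo. Its RNA fell by 1.08 ± 0.19 on the log2 scale (edgeR adjusted p = 0.0311), with no overlap. Nfkbiz, an NF-kB cofactor induced by IL-1, measured 12.97, 23.2 and 15.3 CPM in isotype and 6.23, 5.77 and 5.61 CPM in Combo (log2 -1.55 ± 0.25; edgeR adjusted p = 0.0237). Cxcl1, whose promoter is shown above, measured 25.8, 43.4 and 27.3 CPM in isotype and 2.86, 3.72 and 8.64 CPM in Combo (log2 -2.66 ± 0.45; edgeR adjusted p = 0.0264). Each of these 3 genes had its highest isotype level in isotype 2 and did not overlap.

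The ligands themselves did not pass. Il1a measured 6.59, 5.73 and 12.3 CPM in isotype and 3.66, 5.41 and 2.66 CPM in Combo (log2 -1.07 ± 0.35; edgeR adjusted p = 0.255). Il1b overlapped between the groups, at 7.45, 5.22 and 20.3 CPM in isotype and 3.58, 11.6 and 2.32 CPM in Combo (log2 -0.92 ± 0.58; edgeR adjusted p = 0.581). Il1rn, the soluble receptor antagonist, had a fold change of 0.56 ± 0.60 (edgeR adjusted p = 0.78) that became -0.24 without Combo 1. Of 20 IL-1 family and signalling genes 1 fell (Il1r1), 0 rose and the median was -0.10. Of 17 IL-1-induced genes 2 fell, 0 rose and 13 were negative, with a median of -0.46. Ccl20, a chemokine of that list picked after its values were seen, had 0 counts in isotype and 54 in Combo. By the limit of 3 counts it was at least 16.3-fold higher, without passing (edgeR adjusted p = 0.134).

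Matrix genes rose, most of all in Combo 1. The 7 genes described here were grouped after their values were seen, and the group was not tested. Cpxm1, a secreted carboxypeptidase-like protein, measured 0.697, 1.36 and 1.59 CPM in isotype and 14.0, 10.5 and 7.63 CPM in Combo (log2 3.11 ± 0.36; edgeR adjusted p = 0.00252). Eln, elastin, measured 1.07, 1.00 and 4.34 CPM in isotype and 31.4, 17.1 and 9.44 CPM in Combo (log2 3.13 ± 0.58; edgeR adjusted p = 0.0406). Mmp2, a gelatinase of activated stellate cells, measured 2.36, 1.71 and 2.60 CPM in isotype and 24.5, 11.7 and 6.03 CPM in Combo (log2 2.66 ± 0.50; edgeR adjusted p = 0.0413). In all 3 genes the order of the Combo libraries was the same, with Combo 1 highest and Combo 3 lowest, and the groups did not overlap.

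Ltbp2 and Mfap4, proteins of elastic microfibrils, rose by 3.15 ± 0.52 (edgeR adjusted p = 0.0237) and 3.60 ± 0.70 (0.0495), and Mfap4 no longer passed with total-count scaling (0.0507). Fmod, a collagen-binding proteoglycan, rose by 2.33 ± 0.45 and Loxl1, an elastin cross-linking enzyme, by 2.85 ± 0.55 (edgeR adjusted p = 0.0495 each). Without Combo 1 only Cpxm1 of the 7 still passed, with a fold change of 2.88, while Eln was at 2.60, Mmp2 at 1.99, Ltbp2 at 2.98, Mfap4 at 3.19, Fmod at 1.98 and Loxl1 at 2.37. Cpxm1 was also the only gene of the 7 to pass without Combo 2, without isotype 1 and without isotype 2, so the loss of these calls was not particular to Combo 1. The fibrillar collagens, also picked after their values were seen, did not pass. Col1a1 measured 2.41, 6.43 and 13.6 CPM in isotype and 124, 37.1 and 25.1 CPM in Combo (log2 3.04 ± 0.67; edgeR adjusted p = 0.0837), Col1a2 had a fold change of 1.94 ± 0.43 (0.0907) and Col3a1 one of 2.17 ± 0.53 (0.117). In the stellate cell and matrix list 1 of 27 genes rose (Mmp2), 23 were positive and the median was 0.82, which became 0.18 without Combo 1. Its summed level was 499 to 792 CPM in isotype and 565 to 1616 CPM in Combo, so the groups overlapped.

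**Figure D3:**
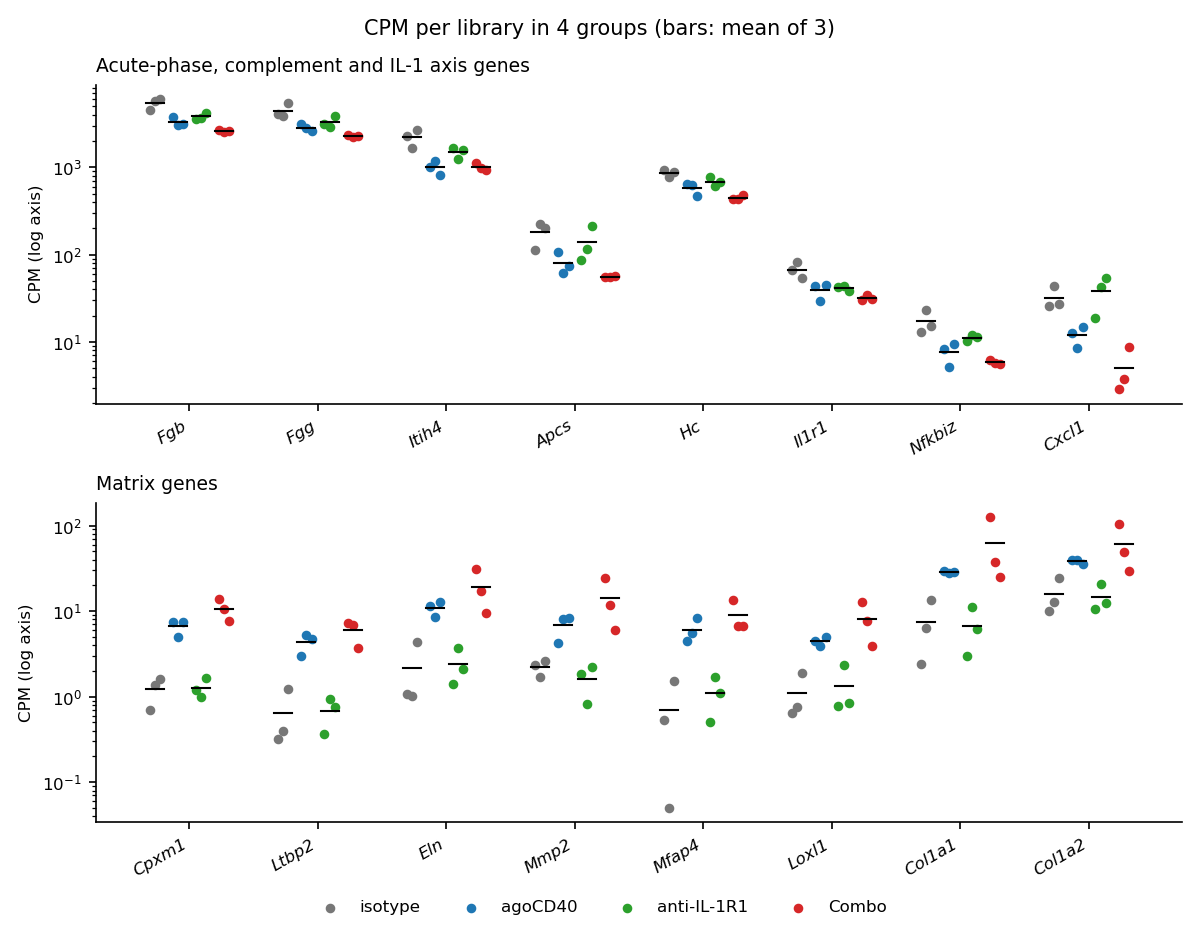
CPM per library on a log axis for acute-phase, complement and IL-1 axis genes (top) and for matrix genes (bottom), with points for the 3 libraries of each of 4 groups and bars at their mean. Fgb lies at 4495 CPM or more in isotype and at 2673 CPM or less in Combo, and the 3 Combo libraries of Col1a1 spread from 25.1 to 124 CPM.

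Metabolic genes of hepatocytes changed in few places. Cyp2c70, the enzyme that makes muricholic acids in mice, measured 231, 193 and 237 CPM in isotype and 403, 484 and 470 CPM in Combo (log2 1.04 ± 0.14; edgeR adjusted p = 0.0101), the 1 call among 23 bile acid genes. It passed in 5 of the 6 fits that left out 1 library and was lost without Combo 2. The cholesterol synthesis list had 0 calls among 26 genes, with 23 negative and a median of -0.44. Hmgcs1, which makes the substrate of the rate-limiting enzyme, measured 391, 630 and 328 CPM in isotype and 144, 190 and 174 CPM in Combo (log2 -1.41 ± 0.32; edgeR adjusted p = 0.1). Sqle, squalene epoxidase, had a fold change of -1.05 ± 0.24 (edgeR adjusted p = 0.0999) and Lss, lanosterol synthase, one of -0.76 ± 0.18 (edgeR adjusted p = 0.112). The groups did not overlap in these 3 genes, with Combo below, as in 7.57% of all genes tested. The drug metabolism list had 0 calls among 43 genes (median 0.25), the fatty acid synthesis list 0 of 19 (0.11), the fatty acid oxidation list 0 of 27 (-0.02) and the circadian clock list 0 of 20 (0.09).

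Stress and immediate-early lists held no call. The immediate-early list had 23 of 27 genes negative and a median of -0.65, and Fos measured 129, 31.7 and 28.6 CPM in isotype and 2.19, 16.6 and 19.4 CPM in Combo (log2 -2.30 ± 0.78; edgeR adjusted p = 0.268). The unfolded protein and integrated stress response list had 22 of 25 negative and a median of -0.33. Chac1, a glutathione-degrading enzyme induced by stress, had a fold change of -1.80 ± 0.40 (edgeR adjusted p = 0.091).

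Several called genes fell outside these groups. Glt28d2 measured 8.36, 8.09 and 7.75 CPM in isotype and 2.02, 2.60 and 2.87 CPM in Combo (log2 -1.69 ± 0.21; edgeR adjusted p = 0.00467). Slc41a2, a magnesium transporter, fell by 1.40 ± 0.24 (edgeR adjusted p = 0.0258). Cars, the cysteine tRNA synthetase, measured 29.4, 35.3 and 38.0 CPM in isotype and 14.8, 11.9 and 15.7 CPM in Combo (log2 -1.278 ± 0.21; edgeR adjusted p = 0.0237). The following were picked after their values were seen. Pdk2, a kinase that inhibits pyruvate dehydrogenase, measured 66.4, 71.2 and 73.5 CPM in isotype and 150, 142 and 124 CPM in Combo (log2 0.98 ± 0.16; edgeR adjusted p = 0.0258). Mycl, a transcription factor of the Myc family, rose by 1.77 ± 0.28 (edgeR adjusted p = 0.0216) and Eif4e3, a cap-binding protein, by 1.60 ± 0.24 (edgeR adjusted p = 0.0203). Mmp15, a membrane-bound matrix metalloproteinase, measured 49.5, 32.4 and 53.1 CPM in isotype and 120, 73.1 and 103 CPM in Combo (log2 1.13 ± 0.21; edgeR adjusted p = 0.041). Nlrp12, a NOD-like receptor, fell by 0.95 ± 0.17 (edgeR adjusted p = 0.038). None of these 8 genes overlapped between the groups, which held for all 63 called genes and so adds no support for these 8.

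The single antibodies give the background for these changes, and all 3 treated groups are set against the same isotype libraries. With the same test 111 genes (0.718%) were called in agoCD40 against isotype, with 1576 (10.2%) at an unadjusted p under 0.05. In anti-IL-1R1 against isotype 0 genes (0%) were called, with 565 (3.65%) at an unadjusted p under 0.05. Ighm stood at 71.3 CPM in agoCD40, 10.4 CPM in anti-IL-1R1 and 59.1 CPM in Combo (means of 3). Combo differed from anti-IL-1R1 in Ighm by 2.51 ± 0.28 (edgeR adjusted p = 0.00329), and from agoCD40 by -0.27 ± 0.26 (edgeR adjusted p = 0.885). Cd163 stood at 2.45 CPM in agoCD40, 15.2 CPM in anti-IL-1R1 and 1.23 CPM in Combo. The difference of Combo was -3.62 ± 0.37 from anti-IL-1R1 (edgeR adjusted p = 0.00306) and -0.999 ± 0.37 from agoCD40 (edgeR adjusted p = 0.739). For both genes Combo was on the side of the agonist group and apart from the blockade group.

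Fgb, Il1r1 and Cxcl1 had their lowest group mean in Combo, and of these Cxcl1 differed from anti-IL-1R1 at the threshold and none differed from agoCD40. Fgb had means of 5396 CPM in isotype, 3319 CPM in agoCD40, 3814 CPM in anti-IL-1R1 and 2606 CPM in Combo. The difference of Combo was -0.35 ± 0.16 from agoCD40 (edgeR adjusted p = 0.794) and -0.55 ± 0.16 from anti-IL-1R1 (edgeR adjusted p = 0.167). Il1r1 had means of 67.3, 39.3, 41.7 and 31.9 CPM in the same order, and Combo differed by -0.30 ± 0.19 from agoCD40 (edgeR adjusted p = 0.815) and by -0.39 ± 0.19 from anti-IL-1R1 (edgeR adjusted p = 0.349). Cxcl1 had means of 32.2, 12.0, 38.3 and 5.08 CPM, and Combo differed from anti-IL-1R1 by -2.92 ± 0.46 (edgeR adjusted p = 0.0245) and from agoCD40 by -1.24 ± 0.44 (edgeR adjusted p = 0.691). Itih4 was as low in agoCD40 (998 CPM) as in Combo (1014 CPM), with a difference of 0.02 ± 0.20 (edgeR adjusted p = 0.99).

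In the direct comparisons 27 genes (0.175%) were called between Combo and anti-IL-1R1, with 2373 (15.3%) at an unadjusted p under 0.05. Between Combo and agoCD40 the count was 1 gene (0.00647%), Noct, with 960 (6.21%) at an unadjusted p under 0.05 and 85 called by DESeq2. Noct, a clock-regulated deadenylase-related enzyme, did not differ detectably between Combo and isotype, at 75.5, 148 and 141 CPM against 71.3, 151 and 96.0 CPM (log2 0.20 ± 0.32; edgeR adjusted p = 0.866). In the agoCD40 libraries it measured 20.9, 19.4 and 11.9 CPM, and Combo differed by 2.81 ± 0.34 (edgeR adjusted p = 0.0301). In 5 of the 6 fits that left out 1 Combo or agoCD40 library, 0 genes were called between these groups, and without Combo 1 there were 4. None of the 63 genes called between Combo and isotype was called between Combo and agoCD40, which does not show that their levels were alike. Gpnmb had means of 7.32 CPM in Combo and 2.40 CPM in agoCD40, a difference of 1.60 ± 0.74, and Hmgcs1 had 169 CPM in Combo and 544 CPM in agoCD40, a difference of -1.68 ± 0.33 (edgeR adjusted p = 0.796 and 0.158). The Hmgcs1 mean was 449 CPM in isotype and 545 CPM in anti-IL-1R1, so Combo had the lowest of the 4 group means. In the test of whether the effect of both antibodies departed from the sum of the single effects on the log2 scale, 1 gene (0.00647%), Ddit4, was called, with 1161 (7.51%) at an unadjusted p under 0.05.

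**Figure D4:**
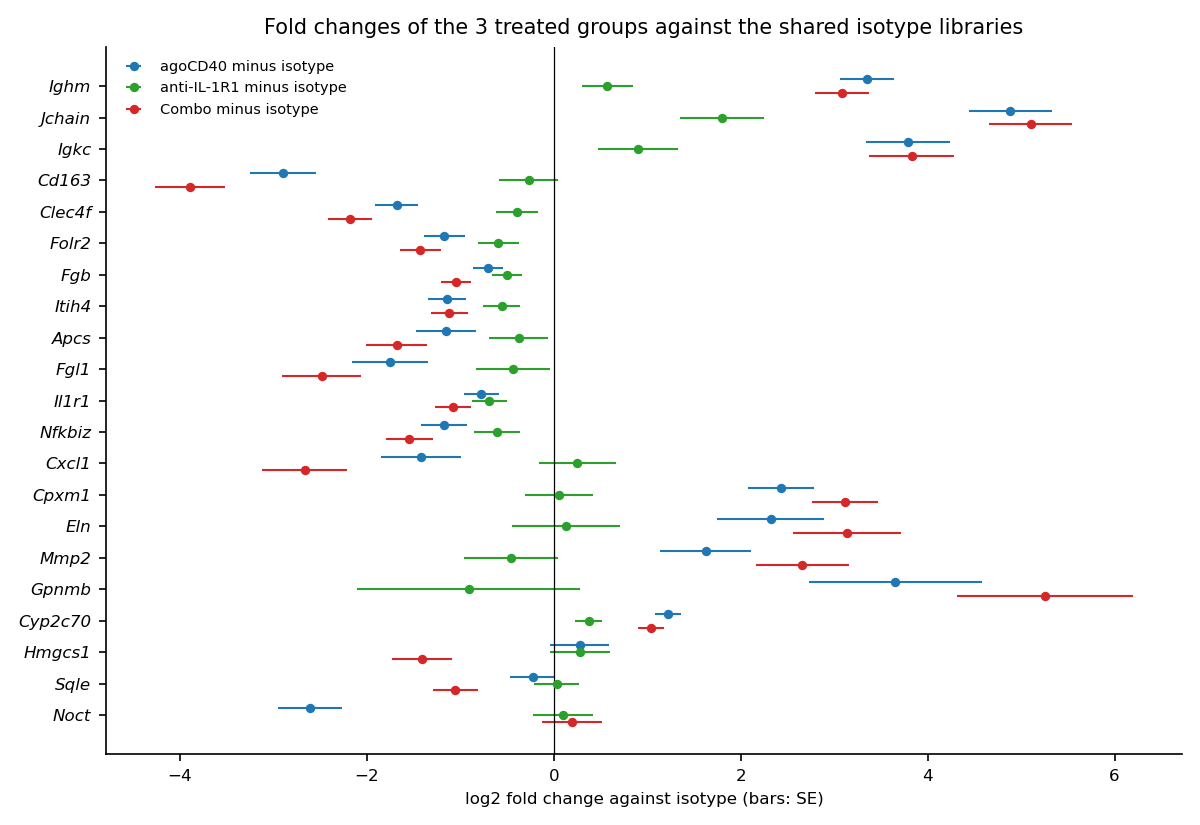
Log2 fold change of each treated group over the shared isotype libraries for 21 genes, with bars of 1 SE. Combo (red) lies near agoCD40 (blue) for Ighm (3.08 and 3.35), while for Noct it is at 0.20 and agoCD40 at -2.61, and for Hmgcs1 it is at -1.41 and agoCD40 at 0.28.

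**Figure D5:**
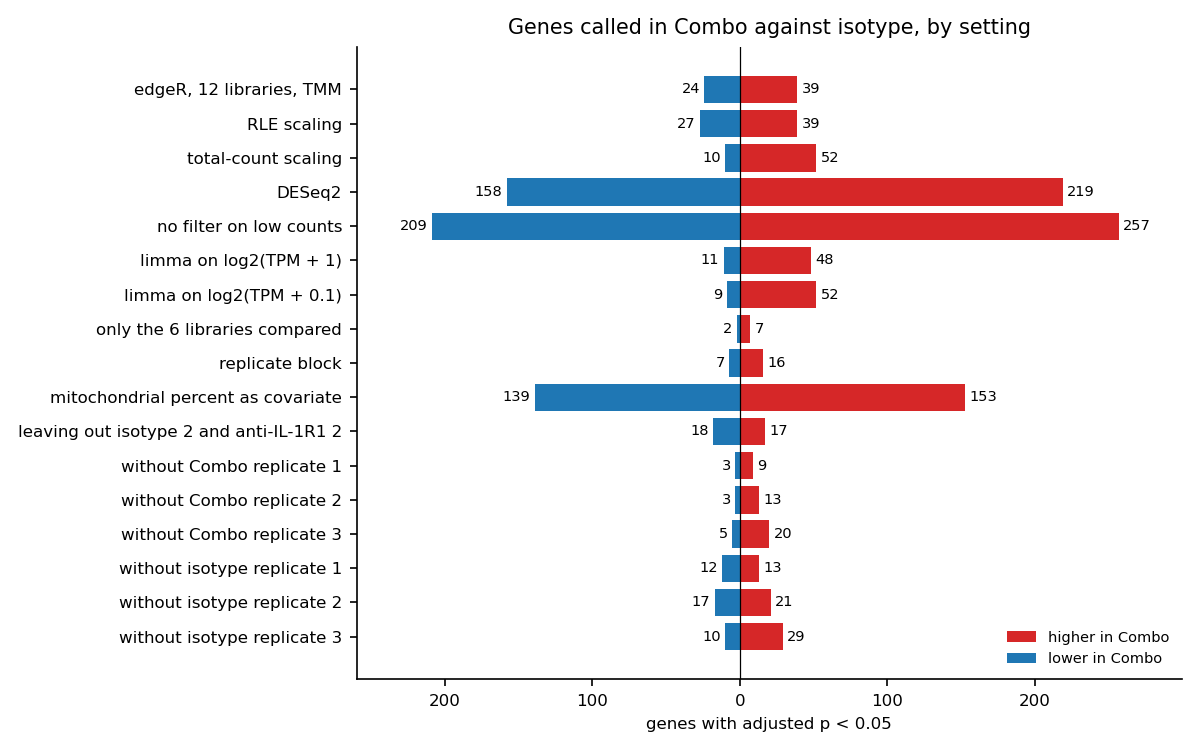
Number of genes called higher (red, to the right) and lower (blue, to the left) in Combo against isotype under each setting of the analysis, at an adjusted p under 0.05. The numbers are 39 higher and 24 lower in the 12-library edgeR fit, 219 and 158 with DESeq2 and 9 and 3 without Combo 1.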

How the data were processed

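Poly(A)-selected RNA from liver was sequenced in 12 libraries. The authors deposited estimated counts per gene, not scaled between libraries, and TPM. Both carry the name of salmon, which the processing notes do not list, so the tool that made them is not settled. Per the submitters' processing notes, the tools were bedtools 2.30.0, cutadapt, DESeq2 1.28.0, FastQC 0.12.1, Picard 3.0.0, RSEM 1.3.1, SAMtools 1.16.1, STAR, StringTie 2.2.1 and Trim Galore 0.6.7 with GRCm39, and their roles are not given in the sources used here.

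The deposited estimated counts (12.99% not whole) were rounded and tested with edgeR 4.0.16 in R 4.3.3: filterByExpr (minimum count 10), TMM, 1 fit of 4 group means over 12 libraries (8 residual degrees of freedom), the quasi-likelihood F test and Benjamini-Hochberg adjustment over 15465 genes. SE were derived from the F statistic. The biological coefficient of variation was 0.291. Limits from a count of 0 (3 counts, with the Combo count taken as exact) and exact 95% intervals cover counting error only. The steps were tested on simulated data.

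The comparison and the 40 lists (860 genes, 783 tested, 12 shared between lists) were chosen with earlier results of these data known, and the lists were not tested. Genes named by rule were the 15 highest and 15 lowest called fold changes without overlap at a mean of 1 CPM or more (no predicted genes or variable segments), called members of each list (up to 8), up to 3 members of lists without a call, and Cd40, Il1r1, Il1a, Il1b, Il1rn and Noct. Others are marked as picked after their values were seen. Some genes that the rule names are not reported here. Promoters came from RefSeq on GRCm38.p6, another build than that of the counts.

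Alternatives were RLE and total-count scaling, DESeq2 1.42.0, no filter, limma 3.58.1 on log2(TPM + 1) and log2(TPM + 0.1), the 6 libraries alone, a replicate block, the mitochondrial percent as covariate, each library left out and, added after seeing the data, isotype 2 and anti-IL-1R1 2 left out together.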

Additional observations from a re-analysis of the deposited data

Results flagged for a closer look

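Ddit4, a stress-induced inhibitor of mTOR signalling, was flagged because the effect of the agonist differed between livers without and with IL-1R1 blockade. Its log2 interaction was 4.13 ± 0.52 (edgeR adjusted p = 0.0422), the 1 gene called among 15465 (0.00647%), with 1161 genes (7.51%) at an unadjusted p under 0.05. DESeq2 called 82 genes, while edgeR called 0 with total-count scaling and 0 with the replicate block. The edgeR fit also called 0 in 7 of the 12 fits that left out 1 library, namely those without agoCD40 1, 2 or 3, anti-IL-1R1 2 or 3, Combo 2 or isotype 3. Ddit4 measured 20.9, 20.8 and 41.1 CPM in isotype, 3.90, 5.38 and 6.44 CPM in agoCD40, 7.10, 5.51 and 9.29 CPM in anti-IL-1R1 and 22.2, 36.3 and 14.3 CPM in Combo. Both single antibodies lay below isotype, and Combo overlapped isotype (log2 -0.19 ± 0.35; edgeR adjusted p = 0.89).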

How the results depend on the processing

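The main fit called 63 genes (39 higher, 24 lower). DESeq2 called 377 (219, 158), no filter 466 (257, 209), the mitochondrial covariate 292 (153, 139) and the 6 libraries alone 9 (7, 2). The fit without isotype 2 and anti-IL-1R1 2 (chosen after seeing the data) called 35 (17, 18). Each number is the total of its own setting, and not how many of the 63 genes were kept. RLE gave 66 and total counts 62, with 10 lower. Limma gave 59 and 61, with 11 and 9 lower. The deviations of Combo and isotype libraries from their group means had correlations of -0.19, -0.02 and -0.48 for replicates 1, 2 and 3. Unlike replicate numbers and the other groups were not compared, so pairing is not settled. The replicate block called 23 (16, 7), against 2 for Combo versus agoCD40, 9 for Combo versus anti-IL-1R1 and 0 for the interaction. Leaving out 1 library gave 12 to 39 called, 9 to 29 higher and 3 to 17 lower. For Combo versus agoCD40 (1 called) it gave 0 to 4 and DESeq2 85, for Combo versus anti-IL-1R1 (27) 4 to 36 and DESeq2 486, and for the interaction (1) 0 to 13, DESeq2 82 and total counts 0. Over all alternatives, 1194 fold changes of named genes kept direction and side of the threshold, 360 lost the call, 114 gained one and 10 changed sign, none of them called. With limma these were Csf1r (0.13 and 0.15) and Adgre1 (0.031 on log2(TPM + 0.1)). Leaving out 1 library at a time gave -0.34 to 0.30 for Csf1r, -0.56 to 0.30 for Adgre1, -0.42 to 1.07 for Trem2, -0.24 to 1.47 for Il1rn, -0.021 to 0.54 for Noct and -0.60 to 0.22 for Ddit4. The cause was not tested, except that fits with fewer libraries have fewer degrees of freedom. Genes under about 1 CPM are limited by counting depth.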

Other observations

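The bile duct and carcinoma epithelium list had 0 calls among 15 genes tested and a median log2 fold change of -0.12, and its summed level was 717 to 780 CPM in isotype and 500 to 666 CPM in Combo. The cell-cycle list had 0 calls among 29 genes, 22 positive and a median of 0.28. The liver endothelium list had 0 calls among 24 genes and a median of 0.09. Ubd, an interferon- and TNF-induced ubiquitin-like modifier, measured 0.536, 0.603 and 1.15 CPM in isotype and 6.40, 3.52 and 2.99 CPM in Combo without passing (log2 2.47 ± 0.61; edgeR adjusted p = 0.132). Fkbp5, a glucocorticoid-responsive co-chaperone, measured 58.2, 47.9 and 63.5 CPM in isotype and 30.9, 17.0 and 30.8 CPM in Combo (log2 -1.11 ± 0.23; edgeR adjusted p = 0.0648).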
